A study of Mus musculus with 18 samples.

Results

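The genes described are the enzymes that attach glutathione, glucuronic acid or sulfate to other molecules in the liver: the glutathione transferases, the UDP-glucuronosyltransferases and the sulfotransferases. They were taken by name. A gene was included if its symbol in the array's table of probes and genes started with Gsta, Gstm, Gstp, Gstt, Gstk, Gsto, Gstz, Mgst, Ugt1a, Ugt2a, Ugt2b, Ugt3a, Sult1, Sult2, Sult3 or Sult5 and did not mark a pseudogene. This gave 51 genes of the 30176 symbols that a transcript cluster names alone, each with 1 transcript cluster. The rule used no expression value, but these genes were chosen with earlier results of these data known. They comprise 20 cytosolic, mitochondrial or peroxisomal glutathione transferases, 3 microsomal ones, 10 UDP-glucuronosyltransferases and 18 sulfotransferases. A further 4 transcript clusters carry the names of several genes, such as the whole Ugt1a locus, and are given apart.

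Liver RNA of male C57BL/6J mice was hybridised to 18 mouse Clariom D arrays, with 3 mice in each of 6 groups. HFN mice ate a diet with 53% of its energy from fat and, after 8 weeks of it, received 50 mg/kg NAD+ by injection each day at ZT11 for 3 weeks. HF mice had the same diet with saline in place of NAD+, and CD mice ate chow and also received saline. Livers of each group were taken at ZT18, in the dark and active phase, and at ZT6, in the light and rest phase, where ZT counts hours from lights on.

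Conjugation makes fat-soluble compounds more soluble in water so that transporters can move them into bile or blood. Glutathione transferases join the tripeptide glutathione to reactive, electrophilic molecules. UDP-glucuronosyltransferases sit in the endoplasmic reticulum and use UDP-glucuronic acid on bilirubin, steroids and drugs, and cytosolic sulfotransferases move sulfate from PAPS to phenols, steroids and bile acids. Many of these genes are known targets of NRF2, the regulator of the antioxidant response, or of the xenobiotic receptors CAR, PXR and AhR, and several differ between male and female mouse liver.

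Signals were deposited as log2 values, so a difference of 1 is a doubling, and levels of different genes are not set against each other. Of the 51 genes, 35 lay above the array's median negative-control signal on all 18 arrays, 13 lay above it on none and 3 on some. A gene was called changed where limma's p, adjusted across the 65956 transcript clusters tested, was under 0.05 and the signal of 1 group exceeded that of the other by over 25%. The p-values measure the spread between these mice, and an exact permutation test of 3 against 3 could not go below 0.1. The 5 arrays with the highest negative-control medians, 4.91 to 5.01 against at most 4.76 on the other 13, were CD ZT18 replicates 2 and 3, CD ZT6 replicate 3 and HF ZT6 replicates 2 and 3, and none was an HFN array. On these 5 the nuclear RNA Neat1 read 11.09 to 15.16, against 7.06 to 8.35 on the other 13. HFN ZT18 replicate 1 also stood apart: the mean log2 signal of 5 adipocyte markers was 7.49 there and 4.62 to 5.87 on the others, and that of 7 lymphocyte and neutrophil markers was 5.99 against 4.38 to 4.65. The 10 hepatocyte markers were above the negative controls on every array, and the cholangiocyte markers Krt19, Epcam and Cftr on none. In bulk liver RNA, fewer cells of a type and less RNA per cell cannot be told apart.

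**Figure D1:**
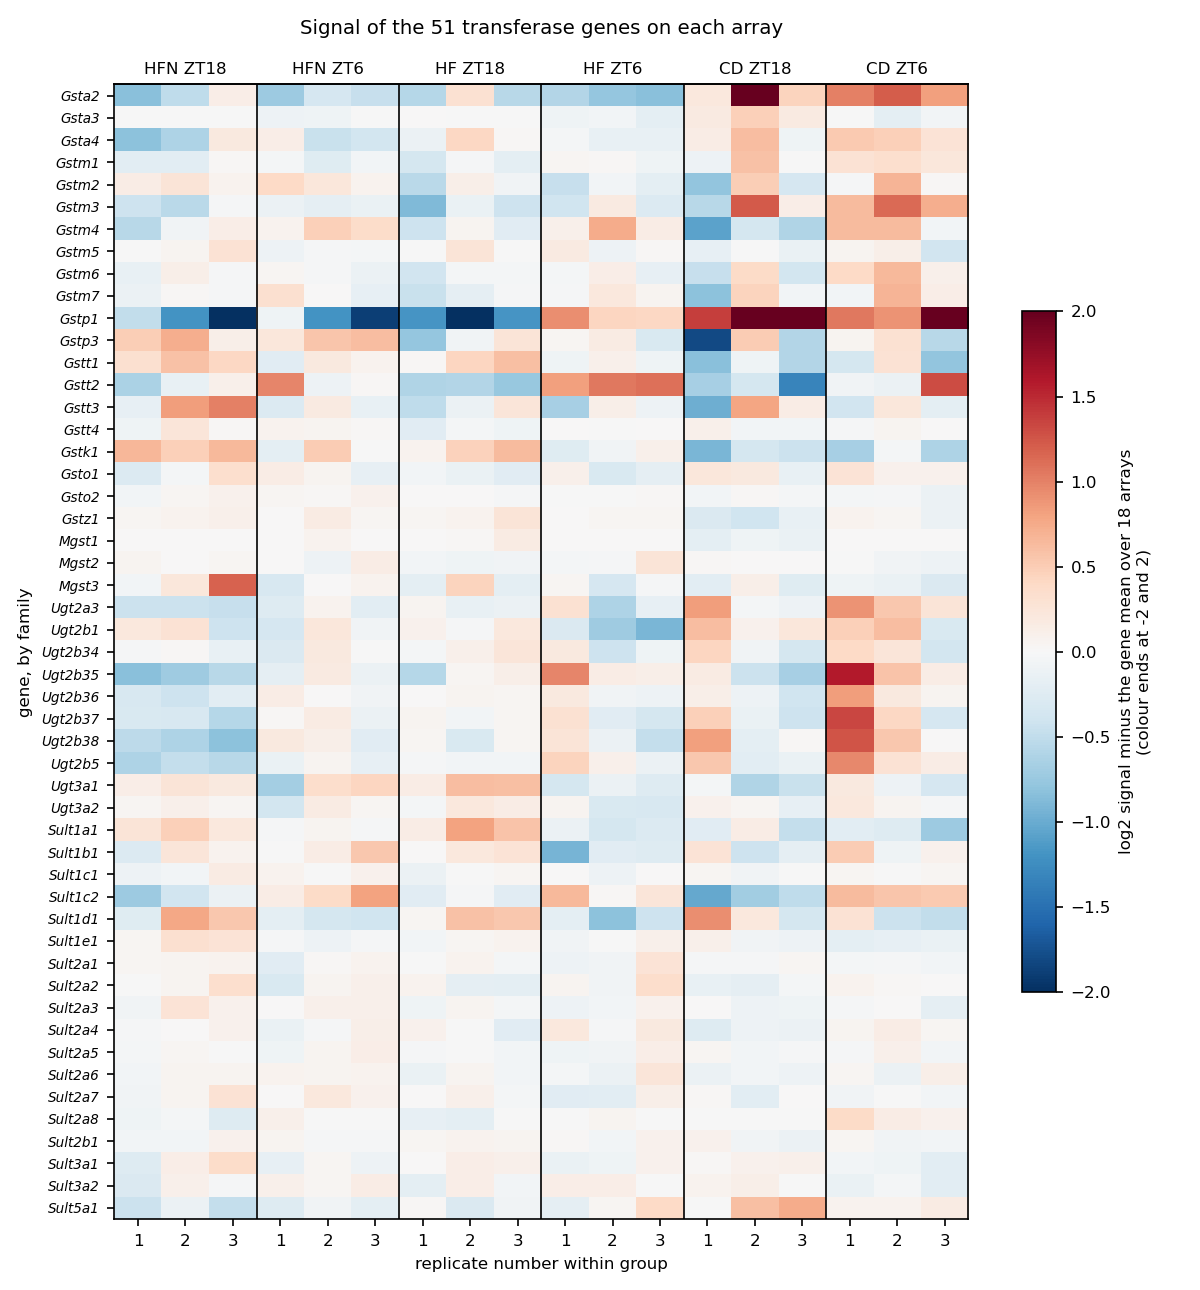
Log2 signal of each of the 51 genes (rows, by family) on each of the 18 arrays (columns, by group and replicate), shown as the difference from the gene's mean over all arrays, with the colours ending at -2 and 2. The row of Gstp1 has all CD arrays above its mean and all HFN arrays below it.

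The comparison of HF with CD livers asked what the high-fat diet changed among these enzymes. At ZT18, 2 of the 51 genes changed, Gstp1 lower and Gstz1 higher, where 0.606% of all transcript clusters changed. At ZT6 0 of the 51 passed limma's test, where 0.044% of all did, and 7 (13.7%) had an unadjusted p under 0.05 with over 25% difference, as did 3.36% of all. On the mean of both times 2 genes changed, Gstp1 and Gsta2, both lower, against 0.52% of all transcript clusters. The median log2 fold change of the 51 was -0.03, beside 0.00 over all transcript clusters.

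HFN livers were set against the same CD mice. At ZT18 2 of the 51 changed, Gstp1 lower and Gstk1 higher, where 1.06% of all transcript clusters changed. At ZT6 0 passed limma's test, where 0.0318% of all did, with 11 members (21.6%) and 2.12% of all at an unadjusted p under 0.05 and over 25% difference. Over both times 3 changed on average, Gstp1 and Gsta2 lower and Gstk1 higher, where 0.751% of all did, and the medians were 0.03 for the members and 0.02 for all.

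Gstp1, the pi class glutathione transferase that is abundant in male mouse liver, had the largest differences of the set. Its log2 signal at ZT18 was 16.48, 15.79 and 14.79 in HFN, 15.81, 14.50 and 15.80 in HF and 18.37, 19.55 and 19.06 in CD livers. At ZT6 it was 16.90, 15.79 and 15.10 in HFN, 17.91, 17.41 and 17.40 in HF and 18.04, 17.89 and 19.13 in CD livers. Every HFN mouse lay below every CD mouse at both times, and every HF mouse lay below every CD mouse at ZT18. At ZT6 the highest HF mouse, at 17.91, lay just above the lowest CD mouse, at 17.89.

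At ZT18 the log2 fold change of Gstp1 was -3.30 in HFN against CD livers, a 9.87-fold lower signal (SE 0.53, limma adjusted p = 0.00906), and -3.62 in HF against CD livers, 12.3-fold lower (adjusted p = 0.00659). At ZT6 it was -2.42 for HFN (adjusted p = 0.288) and -0.78 for HF against CD (adjusted p = 0.916), and neither passed. Averaged over both times, its log2 fold change was -2.86 in HFN livers (adjusted p = 0.00199, SE 0.38) and -2.20 in HF livers (adjusted p = 0.0142). Both diet comparisons were thus called at ZT18 and on the mean, and neither at ZT6 alone.

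The 3 highest Gstp1 values, 19.55, 19.13 and 19.06, came from the 3 CD arrays of high negative-control and Neat1 signal, while HF ZT6 replicates 2 and 3, also of high signal, lay below HF ZT6 replicate 1. The part of this signal in the difference was not tested beyond the fits that follow. A fit that adjusted for negative-control signal lost the HFN call at ZT18. It kept the HF call at ZT18 and both calls on the mean of both times. Fitting the compared groups alone lost both calls at ZT18 and kept both on the mean. A fit without the 5 arrays of highest negative-control signal, which keeps 1 CD mouse at ZT18 and so takes its spread from the other groups, gave -2.68 for HFN and -3.00 for HF against CD at ZT18, with adjusted p of 0.204 and 0.283. On the mean of both times it gave -2.36 for HFN and -1.53 for HF (adjusted p = 0.124 and 0.453), and without HF ZT6 replicate 3 the HF mean was -2.16 (adjusted p = 0.0502). Without HFN ZT18 replicate 1, the array with adipocyte markers, the HFN value at ZT18 was -3.70 (adjusted p = 0.00633). Without HFN ZT18 replicate 3 it was -2.86 (adjusted p = 0.0523).

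Within HF livers, Gstp1 also stood at different levels by time. All 3 HF mice at ZT18 (14.50 to 15.81) lay below all 3 at ZT6 (17.40 to 17.91), a log2 fold change of -2.20 whose adjusted p of 0.0729 missed limma's threshold. HFN livers gave -0.24 and CD livers 0.64 (adjusted p = 0.998 and 0.951). The day-to-night change in HF less that in CD was -2.84 (95% interval -4.45 to -1.23), with an adjusted p of 0.442.

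Gstp2 shares its transcript cluster with the pseudogene Gstp-ps. At ZT18 that cluster gave 14.17, 13.65 and 12.77 in HFN, 13.65, 12.40 and 13.56 in HF and 15.89, 17.27 and 16.70 in CD livers, with no overlap between CD livers and either of the others. Its log2 fold change at ZT18 was -3.08 in HFN (adjusted p = 0.00820) and -3.41 in HF against CD (SE 0.48, adjusted p = 0.00489). Averaged over both times it was -2.63 in HFN (adjusted p = 0.00185) and -2.11 in HF against CD (adjusted p = 0.0101). Gstp1 and Gstp2 are close copies, and how far the probes of one detect the transcripts of the other was not tested.

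Gstp3, the third gene of the locus, was not called. At ZT18 its log2 signal was 10.09, 10.33 and 9.71 in HFN, 8.83, 9.53 and 9.85 in HF and 7.79, 10.11 and 9.02 in CD livers, and the groups overlapped. Over both times its mean log2 fold change was 0.80 in HFN (adjusted p = 0.291) and 0.23 in HF against CD livers (adjusted p = 0.920). The promoters of the locus, on chromosome 19, are shown because the pair with lower signals and the gene without them differ in sequence there. Each window runs from 250 bases before to 50 after the start that RefSeq gives in GRCm38.p6, at chr19:4037863-4038162 for Gstp1, chr19:4042172-4042471 for Gstp2 and chr19:4059398-4059697 for Gstp3, all on the minus strand. Capitals mark TGAGTCA, the site of AP-1 and related factors, searched on both strands.
Gstp1: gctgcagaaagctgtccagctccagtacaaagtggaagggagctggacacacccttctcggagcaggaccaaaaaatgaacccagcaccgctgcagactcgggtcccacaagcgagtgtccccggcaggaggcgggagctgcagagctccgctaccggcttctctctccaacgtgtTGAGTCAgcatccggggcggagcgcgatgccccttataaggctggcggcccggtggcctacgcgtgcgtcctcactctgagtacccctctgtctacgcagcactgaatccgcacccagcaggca
Gstp2: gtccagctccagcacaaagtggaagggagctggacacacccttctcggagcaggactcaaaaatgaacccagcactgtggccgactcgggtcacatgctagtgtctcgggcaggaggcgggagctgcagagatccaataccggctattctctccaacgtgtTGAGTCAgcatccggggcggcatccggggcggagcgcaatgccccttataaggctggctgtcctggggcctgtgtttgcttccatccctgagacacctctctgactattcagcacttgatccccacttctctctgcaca
Gstp3: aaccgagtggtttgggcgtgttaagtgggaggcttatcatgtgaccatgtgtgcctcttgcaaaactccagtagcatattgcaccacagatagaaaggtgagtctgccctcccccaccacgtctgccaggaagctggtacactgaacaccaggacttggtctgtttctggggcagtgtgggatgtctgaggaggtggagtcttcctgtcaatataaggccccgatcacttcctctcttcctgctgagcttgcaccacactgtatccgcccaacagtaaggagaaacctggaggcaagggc
TGAGTCA occurred 1 time in the windows of Gstp1 and Gstp2, 74 and 89 bases before the start, and these letters are not in the window of Gstp3. They are in 5.2% of all 32851 promoter windows in the table and in 12.3% of the 57 windows of members. Of the 45 members that have a window, 7 hold them. In a global alignment the windows of Gstp1 and Gstp2 were 77.1% identical and those of Gstp1 and Gstp3 52.3%.

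**Figure D2:**
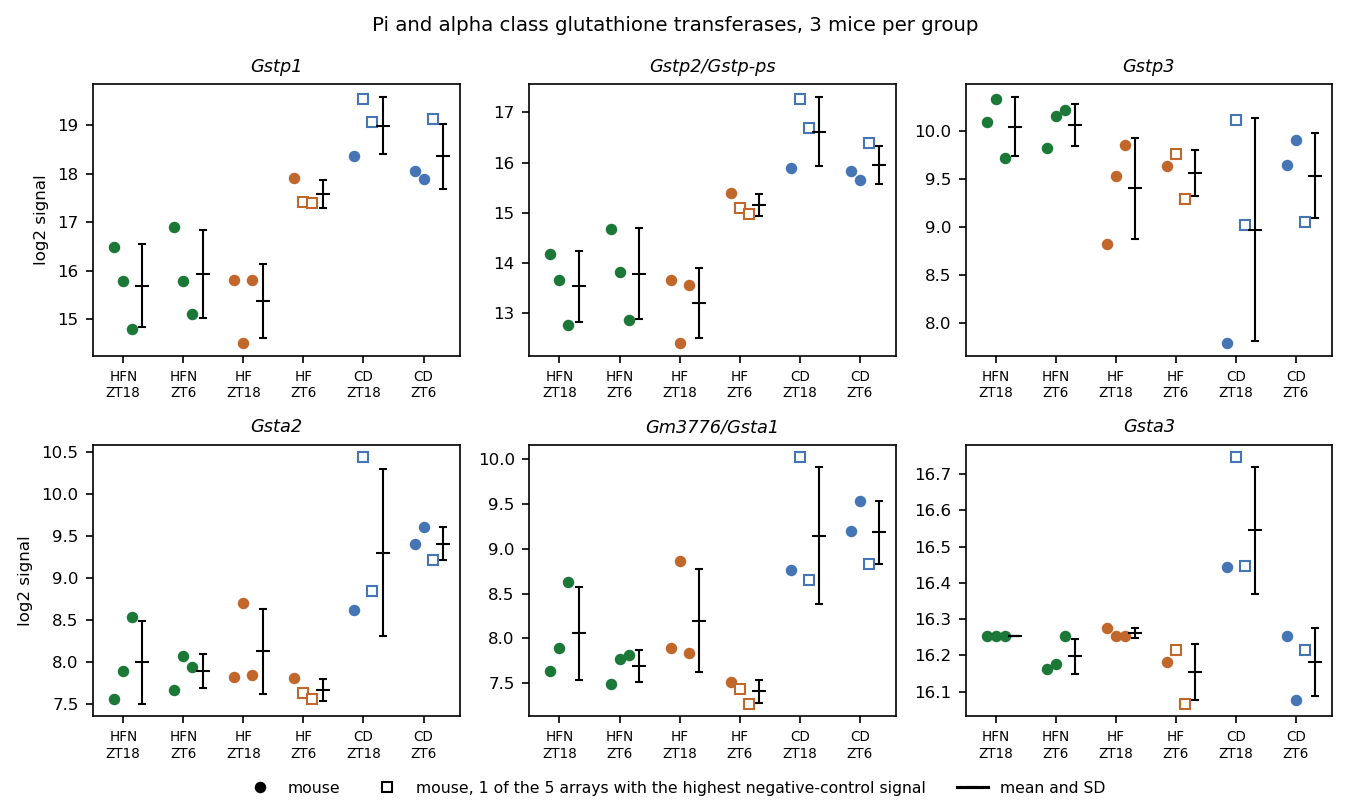
Log2 signal of pi and alpha class transcript clusters in each mouse, by group, with the group mean and SD beside the points (n = 3 mice) and the vertical scale set for each gene. Gstp1, the cluster of Gstp2 and Gstp-ps, Gsta2 and the cluster of Gm3776 and Gsta1 have higher means in both CD groups than in any HFN or HF group, and Gstp3 and Gsta3 do not.

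Gsta2, an alpha class enzyme that NRF2 is known to induce in mouse liver, was lower in both groups on the high-fat diet. At ZT18 its log2 signal was 7.56, 7.89 and 8.53 in HFN, 7.82, 8.70 and 7.84 in HF and 8.62, 10.44 and 8.84 in CD livers. The ZT6 values were 7.67, 8.06 and 7.94 in HFN, 7.81, 7.63 and 7.56 in HF and 9.40, 9.61 and 9.22 in CD livers. HFN and CD mice did not overlap at either time, and at ZT18 1 HF mouse, at 8.70, lay above the lowest CD mouse.

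Averaged over both times, Gsta2 had log2 fold changes against CD livers of -1.41 in HFN (limma adjusted p = 0.0251, SE 0.27) and -1.46 in HF livers (adjusted p = 0.0267). Of the 18 fits that each left out 1 array, 6 lost the call for HFN and 7 that for HF, with adjusted p up to 0.0633 and 0.0781. Both calls were lost with the compared groups alone, and that for HFN also with the negative-control covariate. Without the 5 arrays of highest negative-control signal the values were -1.12 for HFN and -1.10 for HF (adjusted p = 0.151 and 0.306).

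The transcript cluster shared by Gsta1 and the predicted gene Gm3776 had log2 fold changes of -1.29 in HFN (adjusted p = 0.0267) and -1.36 in HF (adjusted p = 0.0248) against CD livers, with all HFN mice below all CD mice. Gsta1 and Gsta2 are near copies, and cross-hybridisation between them was not tested. Their promoter windows are shown because both signals were lower. They lie at chr9:78347096-78347395 on the minus strand for Gsta2 and chr9:78230419-78230718 on the plus strand for Gsta1 (RefSeq, GRCm38.p6), and capitals mark GCGTG, the core to which AhR binds, searched on both strands.
Gsta2: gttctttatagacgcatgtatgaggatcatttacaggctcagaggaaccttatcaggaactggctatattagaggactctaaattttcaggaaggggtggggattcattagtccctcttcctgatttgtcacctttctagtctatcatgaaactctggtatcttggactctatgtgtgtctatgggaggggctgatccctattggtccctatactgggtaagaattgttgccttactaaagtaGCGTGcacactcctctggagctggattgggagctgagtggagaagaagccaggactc
Gsta1: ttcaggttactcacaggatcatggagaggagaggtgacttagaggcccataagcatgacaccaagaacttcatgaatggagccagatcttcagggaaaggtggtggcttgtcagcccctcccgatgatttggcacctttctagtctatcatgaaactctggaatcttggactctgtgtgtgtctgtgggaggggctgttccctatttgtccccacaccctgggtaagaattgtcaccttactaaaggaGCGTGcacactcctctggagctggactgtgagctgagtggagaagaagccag
The windows were 75.6% identical. GCGTG is in 32.4% of all windows and in 19.3% of the 57 member windows, those of 9 of the 45 members. The core of the antioxidant response element, TGACNNNGC, was in 4 of the 45 (Gsta3, Gstm5, Gstm7 and Mgst1). It was in 7.02% of member windows and in 12.4% of all windows. GTTAAT, a half-site of HNF1, was in 10 of the 45, in 17.5% of member windows and in 7.1% of all windows.

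The other alpha genes did not pass a test. Gsta3, a major hepatic alpha enzyme, read exactly 16.25 on 7 arrays, among them all 3 of HFN ZT18. Its CD mice at ZT18 (16.44, 16.75 and 16.45) lay above all HFN and HF mice, with log2 fold changes of -0.29 for HFN (adjusted p = 0.101) and -0.28 for HF against CD (adjusted p = 0.139). Gsta4, which detoxifies the lipid peroxidation product 4-hydroxynonenal, differed by -0.64 on the mean of both times in HFN against CD livers (adjusted p = 0.112).

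Gstk1, the mitochondrial and peroxisomal kappa class enzyme, was higher in HFN livers. Its log2 signal at ZT18 was 15.95, 15.77 and 15.94 in HFN, 15.36, 15.75 and 15.92 in HF and 14.37, 14.94 and 14.86 in CD livers, and the HFN and HF mice lay wholly above the CD mice. The ZT6 values were 15.09, 15.80 and 15.28 in HFN, 15.05, 15.22 and 15.39 in HF and 14.62, 15.26 and 14.68 in CD livers, where the groups overlapped. The log2 fold change in HFN against CD livers was 1.17 at ZT18 (SE 0.22, adjusted p = 0.0192) and 0.85 on the mean of both times (adjusted p = 0.0151). In HF against CD livers it was 0.96 at ZT18, short of the threshold (adjusted p = 0.0658). The ZT18 call in HFN livers was lost without CD ZT18 replicate 3 (adjusted p = 0.0537), without HFN ZT18 replicate 3 (adjusted p = 0.0835) and without the 5 arrays (1.52, adjusted p = 0.109). It was also lost under quantile normalization (adjusted p = 0.0639), with the negative-control covariate (adjusted p = 0.0824) and with the compared groups alone (adjusted p = 0.135). The call on the mean of both times was lost with the covariate, the compared groups alone and without the 5 arrays (adjusted p = 0.0613, 0.0628 and 0.113). Without the array with adipocyte markers the ZT18 call held (1.13, adjusted p = 0.0393).

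Gstz1, the zeta class enzyme of tyrosine breakdown, had narrow values. At ZT18 it read 16.75, 16.77 and 16.82 in HFN, 16.75, 16.78 and 16.97 in HF and 16.43, 16.31 and 16.56 in CD livers, with CD below the rest. Log2 fold changes were 0.35 in HFN (adjusted p = 0.0508) and 0.40 in HF against CD livers (SE 0.08, adjusted p = 0.0342). The value 16.75 recurred identically on 4 arrays. Of the 18 fits that left out 1 array, 8 lost the HF call, with adjusted p up to 0.176. It was lost in 13 of all 25 alternative fits, including the intensity trend, the replicate block, the negative-control covariate, the compared groups alone and the fit without the 5 arrays, with adjusted p up to 0.289.

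Among the theta class, Gstt1, which acts on small halogenated molecules, gave 12.81, 13.07 and 12.90 in HFN, 12.51, 12.91 and 13.09 in HF and 11.64, 12.39 and 11.89 in CD livers at ZT18. The CD mice lay below the others, but neither the 0.95 of HFN (adjusted p = 0.0809) nor the 0.86 of HF (adjusted p = 0.141) passed against CD. In the mu class, Gstm3 differed by -0.78 in HFN and -0.87 in HF against CD livers on the mean of both times (adjusted p = 0.168 and 0.167). Gstm1, the abundant mu enzyme of liver, differed by -0.34 in HFN against CD livers (adjusted p = 0.168). In the omega class Gsto1, a dehydroascorbate reductase, differed by -0.26 in HF against CD livers (adjusted p = 0.493).

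The microsomal transferases, membrane proteins with glutathione transferase or peroxidase activity, were not called in any of the 15 comparisons. Mgst1 held the identical value of 16.24 on 12 arrays, including all of HFN ZT18. Its lowest values, 16.04, 16.15 and 16.10, were those of the CD mice at ZT18, and HF against CD at ZT18 gave 0.20 (adjusted p = 0.121). Mgst3 differed by 0.56 in HFN against CD livers at ZT18 (adjusted p = 0.338), where HFN ZT18 replicate 3 stood at 6.86 and the other 17 arrays at 6.14 or less.

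No UDP-glucuronosyltransferase passed the test in any of the 15 comparisons. In HFN against CD livers on the mean of both times, 9 of the 10 had a negative log2 fold change, with a median of -0.36 beside 0.02 over all transcript clusters. In HF against CD livers it was 9 of 10, with a median of -0.16 beside 0.00. The 7 Ugt2b genes and Ugt2a3 lie on chromosome 5, and how far such similar members share signal was not tested.

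Ugt2a3 had the lowest adjusted p of the family against CD livers, 0.0939, for a log2 fold change of -0.68 in HFN livers on the mean of both times (SE 0.17). At ZT18 it was 15.85, 15.85 and 15.82 in HFN, 16.33, 16.13 and 16.16 in HF and 17.12, 16.24 and 16.17 in CD livers, and the HFN mice lay below all others of that time. Ugt2b5, which acts on steroids and phenols, showed the same placing at ZT18, with 16.24, 16.39 and 16.30 in HFN, 16.83, 16.81 and 16.81 in HF and 17.40, 16.65 and 16.73 in CD livers. Its log2 fold change on the mean of both times was -0.58 in HFN against CD livers (adjusted p = 0.0991). CD ZT18 replicate 1 and CD ZT6 replicate 1 were the highest of their groups for Ugt2a3, Ugt2b5, Ugt2b34, Ugt2b35, Ugt2b36, Ugt2b37 and Ugt2b38. Both are among the 13 arrays of lower negative-control signal, and with that signal as a covariate Ugt2a3, Ugt2b1, Ugt2b38 and Ugt2b5 passed the test in HFN against CD livers.

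At ZT6 the 10 members had log2 fold changes of -0.90 to -0.16 in HF against CD livers. Ugt2b1, one of the main glucuronosyltransferases of rodent liver, was 17.76, 18.32 and 18.02 in HFN, 17.81, 17.38 and 17.18 in HF and 18.57, 18.71 and 17.79 in CD livers at that time, and its log2 fold change of -0.90 for HF against CD had an adjusted p of 0.462. Ugt3a1, which uses N-acetylglucosamine in place of glucuronic acid, differed the other way at ZT18, with 14.41, 14.88 and 14.87 in HF against 14.22, 13.66 and 13.81 in CD livers (log2 fold change 0.82, adjusted p = 0.164). The transcript cluster of the Ugt1a locus, which includes the bilirubin enzyme Ugt1a1, differed by -0.38 in HFN against CD livers on the mean of both times (adjusted p = 0.205).

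The sulfotransferases were not called by diet. None of the 18 was among the genes called in HFN or in HF against CD livers at either time or on the mean. Sult5a1 had the lowest adjusted p, for -0.79 in HFN against CD livers at ZT18 (SE 0.18, adjusted p = 0.0522), where the HFN mice read 4.90 or less, below all 3 CD mice, of which the highest read 5.76. These values are close to the negative controls, and CD ZT18 replicates 2 and 3 are arrays of high control signal. Sult2a8, the hepatic bile acid sulfotransferase of mice, read exactly 18.22 on 7 arrays and differed by at most 1.15-fold in any of the 15 comparisons.

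Of the 13 genes not above the negative controls on any array, 8 were of the Sult2 and Sult3 subfamilies, among them Sult2a1 and Sult3a1, which female mouse liver is known to express. Sult1e1, the estrogen sulfotransferase, was also below on every array, as were Sult1c1, Gstt4, Gsto2 and Mgst2. Their log2 signals lay between 3.36 and 4.73, and a change in them was not measurable at this level.

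**Figure D3:**
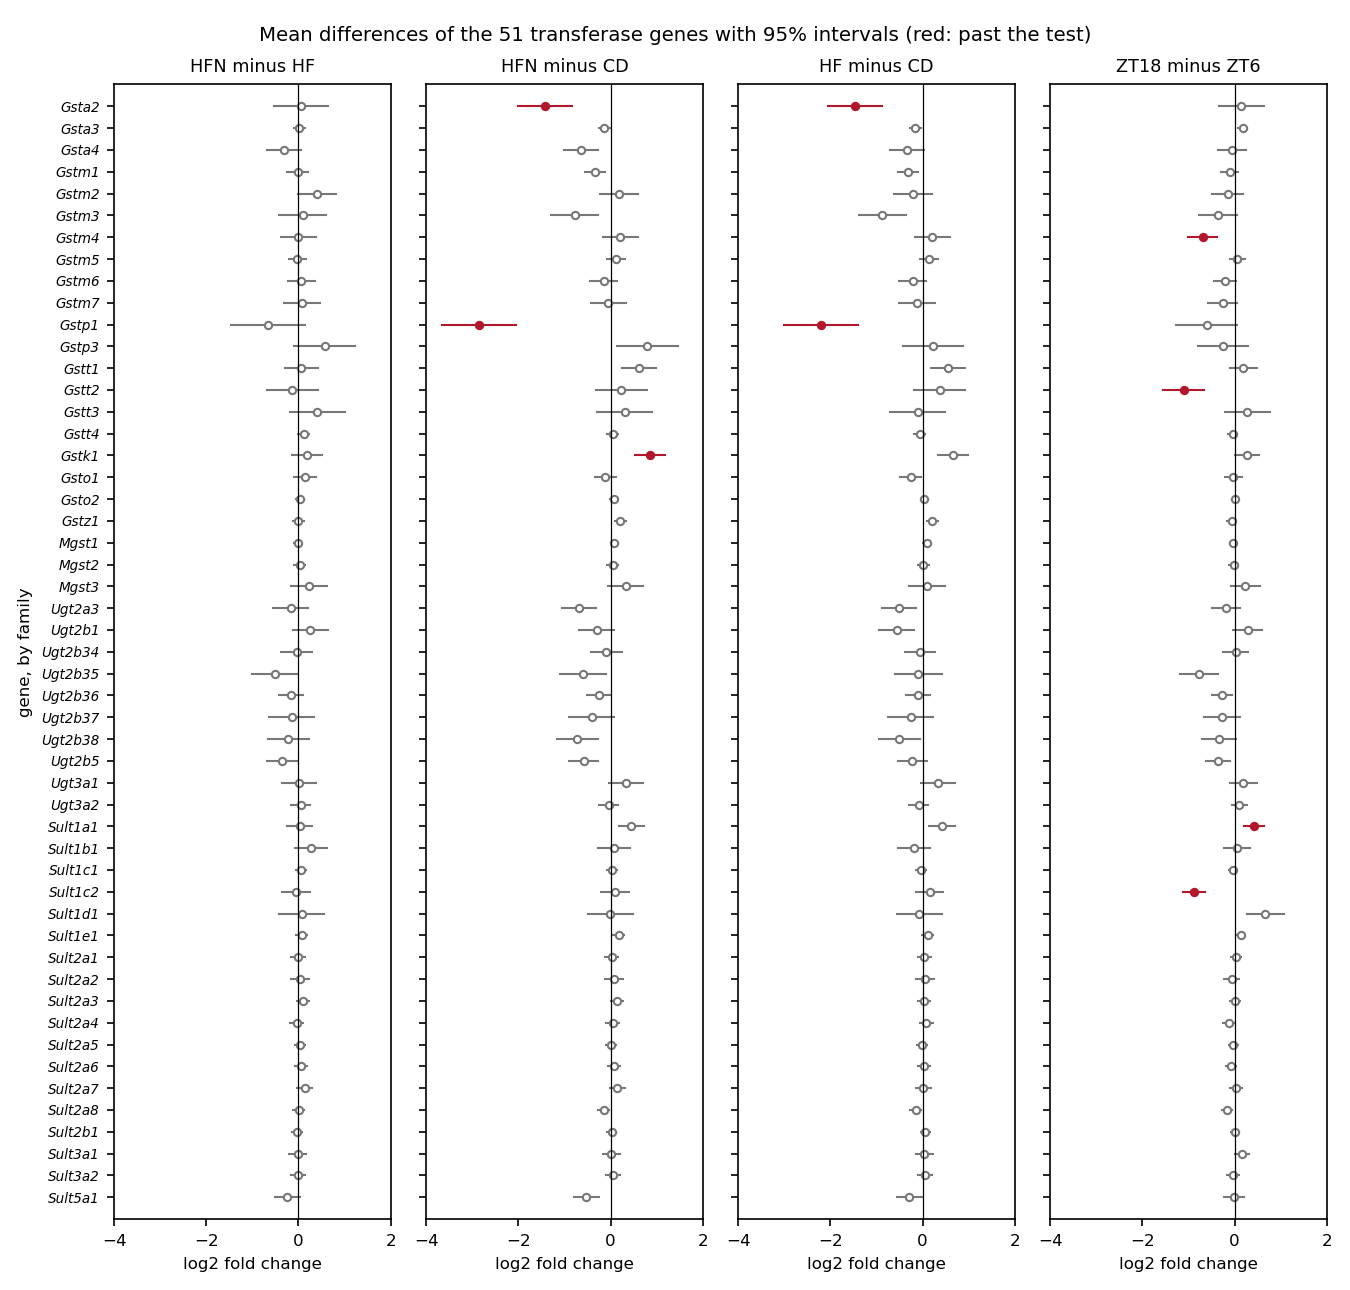
Log2 fold change of each of the 51 genes with its 95% interval, for HFN minus HF, HFN minus CD and HF minus CD on the mean of both times, and ZT18 minus ZT6 on the mean of the diets. Filled red points passed the test: 0 for HFN minus HF, 3 for HFN minus CD, 2 for HF minus CD and 4 for ZT18 minus ZT6.

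The comparison of HFN with HF livers asked what NAD+ at ZT11 changed in mice on the high-fat diet. By limma, 0 of the 51 genes passed at ZT6, at ZT18 and on the mean of both times, and 0% of all transcript clusters did. With an unadjusted p under 0.05 and over 25% difference there were 3 members (5.88%) beside 4.07% of all transcript clusters at ZT6, 1 (1.96%) beside 2.81% at ZT18 and 2 (3.92%) beside 1.80% on the mean. Gstp1 at ZT6 had the lowest adjusted p of these, 0.616. There all HFN mice (15.10 to 16.90) lay below all HF mice (17.40 to 17.91), with a log2 fold change of -1.64 (95% interval -2.78 to -0.50). In the same comparison the log2 fold changes of the 10 Kupffer cell markers had their median at -0.70, with 0 of them called, and their part in that of Gstp1 was not tested. At ZT18 the groups overlapped, with a log2 fold change of 0.32 (95% interval -0.82 to 1.46).

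For genes with measurable signal, the intervals give the size of a NAD+ effect that these data leave possible. Averaged over both times, 47 of the 51 genes had a 95% interval within a 2-fold difference in either direction. The 51 include 13 genes above the negative controls on no array and 4 with identical values on 4 or more arrays. A narrow interval of such a gene sets no limit on a NAD+ effect. For Gstp1 the interval ran from -1.47 to 0.14, for Gsta2 from -0.54 to 0.64 and for Gstk1 from -0.14 to 0.52 on the log2 scale. At ZT18 the 10 UDP-glucuronosyltransferases all had a negative log2 fold change in HFN against HF livers, with a median of -0.36 beside 0.02 over all transcript clusters and a lowest adjusted p of 0.871. At ZT6 it was 2 of the 10, with a median of 0.09. The day-to-night change in HFN less that in HF was called by limma for 0 members and 0% of all transcript clusters, with 3 members (5.88%) and 4.999% of all at an unadjusted p under 0.05 and over 25% difference.

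The comparison of ZT18 with ZT6 asked which enzymes differed between night and day. On the mean of HFN, HF and CD livers, 4 of the 51 genes changed: Sult1c2, Gstt2 and Gstm4 were lower and Sult1a1 higher at ZT18, where 1.6% of all transcript clusters changed. Within CD livers Sult1c2 passed, 1 of 51, where 0.376% of all changed. Within HFN and within HF livers 0 of the 51 passed limma's test, against 0.246% and 0.866% of all transcript clusters, with 4 members (7.84%) beside 4.11% of all in HFN and 8 (15.7%) beside 8.83% in HF livers at an unadjusted p under 0.05 and over 25% difference.

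Sult1c2, which sulfates phenolic compounds, had the lowest adjusted p of these. Its log2 signal at ZT18 was 5.46, 5.80 and 6.07 in HFN, 5.95, 6.16 and 5.96 in HF and 5.16, 5.50 and 5.69 in CD livers. The ZT6 values were 6.33, 6.56 and 6.99 in HFN, 6.83, 6.21 and 6.43 in HF and 6.82, 6.74 and 6.72 in CD livers. All 9 mice at ZT18 lay below all 9 at ZT6. The log2 fold change on the mean of the diets was -0.88 (SE 0.11, adjusted p = 0.000583), and all 24 alternative fits kept the call. By diet it was -0.85 in HFN, -0.47 in HF and -1.31 in CD livers, with adjusted p of 0.122, 0.329 and 0.00825. The difference of 0.85 between the HF and CD changes had an adjusted p of 0.485.

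Gstt2, a theta class enzyme active on sulfate esters, gave 7.31, 7.79 and 8.04 in HFN, 7.34, 7.36 and 7.19 in HF and 7.27, 7.59 and 6.63 in CD livers at ZT18. At ZT6 the values were 8.91, 7.83 and 7.97 in HFN, 8.76, 8.99 and 9.05 in HF and 7.87, 7.82 and 9.25 in CD livers. The times overlapped in HFN livers and were apart in HF and CD livers. Gstt2 differed by -1.10 between ZT18 and ZT6 on the mean of the diets (SE 0.21, adjusted p = 0.0112). By diet it was -0.53 in HFN, -1.64 in HF and -1.15 in CD livers, with adjusted p of 0.859, 0.0528 and 0.345. Without the 5 arrays of highest negative-control signal, 3 of which are ZT6 arrays, the mean change was -0.85 (adjusted p = 0.113).

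Gstm4, a mu class enzyme, was 9.83, 10.31 and 10.51 in HFN, 9.98, 10.45 and 10.15 in HF and 9.31, 10.03 and 9.78 in CD livers at ZT18. At ZT6 it was 10.46, 10.86 and 10.76 in HFN, 10.49, 11.13 and 10.53 in HF and 11.01, 11.01 and 10.33 in CD livers. In HFN livers the highest mouse at ZT18 passed the lowest at ZT6, and in HF and CD livers the times were apart. Its log2 fold change was -0.69 on the mean of the diets (SE 0.14, adjusted p = 0.0186), and it stayed past the threshold without the 5 arrays (-0.83, adjusted p = 0.0315).

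Sult1a1, the phenol sulfotransferase, was the 1 member called higher at night. It read 14.09, 14.30 and 14.03 in HFN, 13.97, 14.63 and 14.40 in HF and 13.60, 13.97 and 13.35 in CD livers at ZT18. At ZT6 it read 13.80, 13.88 and 13.80 in HFN, 13.71, 13.47 and 13.55 in HF and 13.61, 13.57 and 13.11 in CD livers. The times were apart in HFN and HF livers and overlapped in CD livers. The log2 fold change was 0.43 on the mean of the diets (SE 0.10) with a limma adjusted p of 0.0481. Of the 18 fits that left out 1 array, 15 lost the call, with adjusted p up to 0.106. It was lost in 19 of all 24 alternative fits, among them quantile normalization, the intensity trend and the negative-control covariate. Sult1d1 was not called, but its mean log2 signal was also higher at ZT18 than at ZT6 in each diet. The means were 13.23 and 12.56 in HFN, 13.25 and 12.39 in HF and 13.13 and 12.66 in CD livers.

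**Figure D4:**
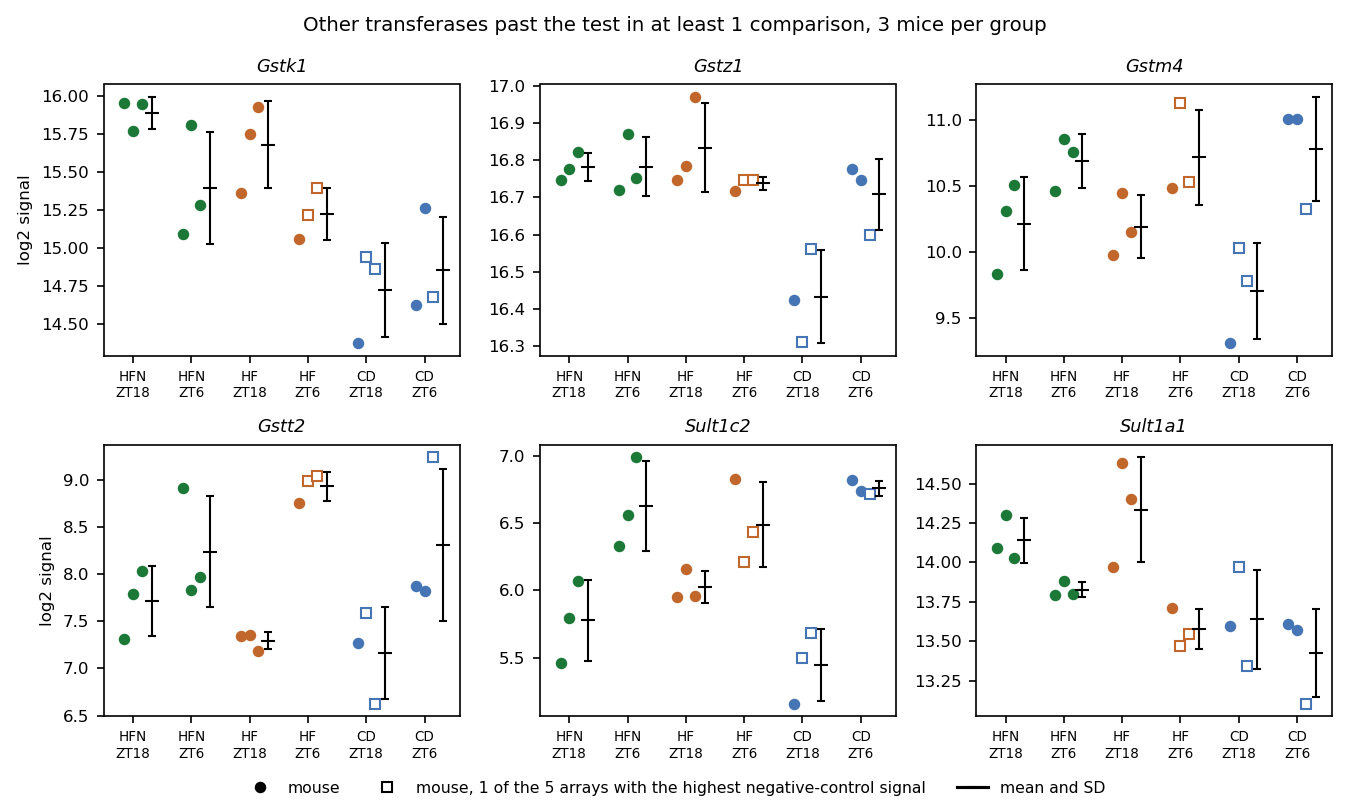
Log2 signal in each mouse, by group, of the other 6 genes past the test in at least 1 comparison, with the group mean and SD beside the points (n = 3 mice) and the vertical scale set for each gene. Gstk1 and Gstz1 have their lowest group mean in CD livers at ZT18, Gstm4, Gstt2 and Sult1c2 have lower means at ZT18 than at ZT6 in each diet, and Sult1a1 has higher ones.

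Whether the diets differed in their day-to-night change was tested as HF less CD. By limma 0 of the 51 passed, 0% of all transcript clusters did, and 7 members (13.7%) had an unadjusted p under 0.05 with over 25% difference, as did 8.08% of all. The 10 UDP-glucuronosyltransferases all had a positive difference, with a median of 0.47 beside -0.01 over all transcript clusters and a lowest adjusted p of 0.490. The same HF mice enter this difference and those of HFN and HF against the other groups. Ugt2b35 had the lowest adjusted p of the family for ZT18 against ZT6 on the mean of the diets, 0.0576, at a log2 fold change of -0.77 (SE 0.19).

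Genes that supply glutathione, UDP-glucuronic acid or PAPS were read over the 15 comparisons. The share of all transcript clusters called in at least 1 of the 15 was not counted. Of all transcript clusters 1.6% changed between ZT18 and ZT6 on the mean of the diets. Of 13 genes of glutathione synthesis and breakdown, 1 rose at ZT18 on the mean of the diets, Gclc, the catalytic subunit of the rate-limiting enzyme of glutathione synthesis (0.72, SE 0.13, adjusted p = 0.00865). Its mean log2 signals at ZT18 and ZT6 were 15.63 and 14.35 in HFN, 15.74 and 14.82 in HF and 14.88 and 14.92 in CD livers, and by diet it passed in HFN livers alone (1.28, adjusted p = 0.0330). Nat8, which acetylates cysteine conjugates on the way to mercapturic acids, passed the test in HF against CD livers but lay above the negative-control median on 4 of 18 arrays, so no size is given. Of 5 genes for UDP-glucuronic acid, Ugp2, which makes UDP-glucose, and Slc35d1, which carries UDP-glucuronic acid into the endoplasmic reticulum, were lower at ZT18 (-0.70 and -0.51, adjusted p = 0.000929 and 0.00119). Ugp2 was also higher in HF against CD livers at ZT18 (0.79, adjusted p = 0.0442), where 0.606% of all transcript clusters changed. Ugdh, which oxidises UDP-glucose to UDP-glucuronic acid, was lower in HFN against CD livers on the mean of both times (-0.63, adjusted p = 0.0322). There 0.751% of all transcript clusters changed. Of 8 genes for PAPS, Bpnt1, which removes its spent product, was higher at ZT18 (0.41, adjusted p = 0.0109), and the other 7 passed none of the 15 comparisons.

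Among 19 known regulators of these enzymes, none was called on the mean of both times in HFN or in HF against CD livers. Their medians were 0.08 and 0.07. Of all transcript clusters 0.751% and 0.52% were called there, so 0 of 19 does not set the regulators apart. Ahr, the receptor for aromatic ligands, was lower in HF against CD livers at ZT18 (-1.18, SE 0.22, adjusted p = 0.0246). CD ZT18 replicates 2 and 3 are arrays of high negative-control signal. The alternative fits were read for the 51 members only, so whether calls of genes outside the families depend on those arrays was not tested. Outside the families, 13 targets of CAR, PXR and AhR were read. On the mean of both times, 4 were lower in HFN and 3 in HF against CD livers, beside 0.751% and 0.52% of all transcript clusters. There 0 were higher, and the medians were 0.12 and -0.10. Cyp1a1 lay above the negative-control median on no array, Cyp2b13 on 1, Cyp2b9 on 3 and Cyp2b10 on 8 of 18. Cyp1a2, an AhR target of pericentral hepatocytes, had log2 fold changes of -1.91 in HFN (adjusted p = 0.000584) and -1.71 in HF livers (adjusted p = 0.00156). Ces2a, a carboxylesterase, had -1.47 in HFN and -1.49 in HF livers (adjusted p = 0.00200 and 0.00219). Of 13 NRF2 targets outside the families, Me1, the malic enzyme that makes NADPH for lipid synthesis, was the 1 called. It was higher by 1.72 in HFN (adjusted p = 0.0265) and 2.43 in HF livers (adjusted p = 0.00341). Slc7a11 and Cbr3 lay above the negative-control median on no array.

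Between night and day, 5 of the 19 regulators changed on the mean of the diets, where 1.6% of all transcript clusters did. Cebpa, Rxra, Ppara and Bach1 were lower and Esr1, the estrogen receptor, higher at ZT18. Cebpa, a factor of hepatocyte differentiation, differed by -0.87 (adjusted p = 0.000239, SE 0.10), and Rxra, the partner of CAR, PXR and PPARα, by -0.64 (adjusted p = 0.00648). Of 14 transporters that move conjugates or bile acids, Abcc2, the canalicular exporter of glutathione and glucuronide conjugates, was lower at ZT18 (-0.98, SE 0.11, adjusted p = 0.000164) and Abcg2, an exporter of sulfate conjugates, higher (0.48, adjusted p = 0.0467). Abcg2 was also higher in HF against CD livers (0.71, adjusted p = 0.0379).

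Sex-biased genes and markers of other cells were read beside the members. Of 12 male-biased liver genes outside the families, 2, Cyp7b1 and Selenbp2, were lower in HFN and in HF against CD livers on the mean of both times, and the other 10 did not pass there. Selenbp2 had log2 fold changes of -2.57 in HFN and -2.65 in HF livers (adjusted p = 0.000683 and 0.000553). The mean log2 signal of the 12, Mup20 and Serpina1e included, was 15.79 to 16.97 in HFN, 16.12 to 16.99 in HF and 16.98 to 17.43 in CD livers over both times. Of 12 female-biased genes, 2 were higher in HFN against CD livers on that mean, Cyp17a1 and Acot3, and 1, Cyp2a4, was lower. In HF against CD livers Cyp17a1 was likewise called higher and Cyp2a4 lower, and Acot3 was not called. The shares of all transcript clusters are those just given. Cux2, A1bg, Hao2 and Prom1 lay above the negative-control median on no array, so a change in them was not measurable. Cyp2b9 and Cyp2b13 lay above it on 3 and 1 of 18 arrays. Cyp17a1, an enzyme of steroid synthesis, had a log2 fold change of 4.91 in HFN and 4.71 in HF against CD livers (adjusted p = 6.7e-05 and 0.000106). Of 5 adipocyte markers, Cidec, a lipid droplet protein that fatty hepatocytes also make, passed on the mean of both times. It differed by 3.40 in HFN and 2.76 in HF against CD livers (adjusted p = 0.00101 and 0.00540), beside the same 0.751% and 0.52% of all transcript clusters. Of 8 endothelial markers, Lyve1 was higher in HFN against CD livers at ZT18 (2.25, adjusted p = 0.0252), and the other 7 were not called. There 1.06% of all transcript clusters changed. The HFN values of Cidec and Lyve1 include HFN ZT18 replicate 1, the array with adipocyte markers, and neither gene was refitted without it. None of the 10 Kupffer cell markers was called, and their median log2 fold change at ZT6 was -0.70 in HFN against HF and 0.63 in HF against CD livers. Their mean log2 signal at ZT6 was 7.86 to 8.35 in HFN, 8.47 to 9.01 in HF and 7.82 to 8.54 in CD livers. The part of these genes and cells in the differences of Gstp1, Gsta2 and Gstk1 was not tested.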

How the data were processed

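Liver RNA of 18 mice was measured on Clariom D arrays. The authors processed the arrays in Transcriptome Analysis Console with its default settings and deposited log2 values per transcript cluster. How probes were summarised, and on which genome build, is not given in the sources used here, and the number of arrays limits the precision. The table held 72688 entries, of which 6732 control probe sets were left out and 65956 transcript clusters tested.

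The values were used as deposited, with groups from the sample labels. A means model of the 6 groups was fitted to the 18 arrays together (12 residual degrees of freedom) with limma 3.58.1 in R 4.3.3, and 15 comparisons were drawn from it, with Benjamini-Hochberg adjustment over all transcript clusters and a threshold of adjusted p 0.05 and a 25% difference. Scripts were tested on simulated data. Named were all members past a test, up to 2 members of lowest p from families with none, and up to 3 genes per list among those past it. Other members, such as Gsta3, Gstm3, Gstp3, Gstt1, Sult1d1, Ugt2b1 and the dim sulfotransferases, and further regulators were named outside this rule after their values were seen. The members and lists were chosen with earlier results of these data known. Of 195 list entries 177 matched a symbol. Alternatives were quantile normalization, the brighter part of the transcript clusters, other fold thresholds, an intensity trend, a replicate block, a negative-control covariate, the compared groups alone, and leaving out arrays. Promoters came from RefSeq, with a window for 45 of the 51 genes.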

Additional observations from a re-analysis of the deposited data

Results flagged for a closer look

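Mgst2, a microsomal glutathione transferase, lay on opposite sides by time in HF and CD livers. The log2 fold change of ZT18 against ZT6 was -0.13 in HF livers, where all 3 ZT18 mice lay below all 3 ZT6 mice, and 0.071 in CD livers, where all 3 lay above. Tested directly, the difference between these changes, HF minus CD, was -0.20 (limma adjusted p = 0.579), which did not pass. Mgst2 was not above the negative-control median on any array, and HF ZT6 replicates 2 and 3 are arrays of high control signal. Groups of 3 were not searched for single samples far from the others.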

How the results depend on the processing

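The call counts among the 51 genes were recomputed under each alternative. None of the results called in the main fit reversed its direction, and the directions of the other results were not compared. The listed genes outside the families were not followed through the alternatives. Quantile normalization left 1 gene called in HFN against CD at ZT18. Testing the brighter part of the transcript clusters, which are fewer, gave 4 there and 3 for ZT18 against ZT6 in HF. An intensity trend with a robust prior left 1 in HF against CD at ZT18. Fitting the compared groups alone, which are fewer samples, left 0 in HF against CD and in HFN against CD at ZT18 and for ZT18 against ZT6 in CD, and 1 for ZT18 against ZT6 in HF and for the mean of both times in HFN and in HF against CD. The negative-control covariate gave 1 in HF against CD at ZT18 and 5 in HFN against CD on the mean. Leaving out the 5 arrays of highest negative-control signal, an alternative chosen after seeing the data, keeps 1 CD mouse at ZT18, assumed to vary like the other groups, and gave 0 in HF against CD at ZT18 and on the mean and for ZT18 against ZT6 in CD, 1 in HFN against CD at ZT18 (Ugt2a3, where the CD mouse kept was the highest of its group) and 2 for ZT18 against ZT6 on the mean (Gstm4 and Sult1c2). It also gave 3 in HFN against CD on the mean, but these were Ugt2a3, Ugt2b38 and Ugt2b5. The cause of the other shifts was not tested.

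Same-numbered mice did not pair: 14 of 45 pairs of same-numbered arrays had deviations correlated over 0.1, with a range of -0.51 to 0.57. All 3 pairs were over 0.1 for CD ZT6 with HF ZT18 and for HF ZT6 with CD ZT18, which no comparison sets directly against each other. The replicate block gave 4 genes in HFN against CD at ZT18, 2 for ZT18 against ZT6 in CD, 1 for the same in HF and 5 in HFN against CD on the mean, and other counts stayed within 1.5 times.

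Leaving out 1 array at a time, the count ranged over 0 to 1 for HF against CD at ZT6 (1 without CD ZT18 replicate 2), 1 to 6 for HF against CD at ZT18 (6 without CD ZT18 replicate 1), 0 to 5 for HFN against CD at ZT18 (0 without HFN ZT18 replicate 3, 5 without CD ZT18 replicate 1), 1 to 2 for ZT18 against ZT6 in CD and 0 to 2 for the same in HF. On the mean of both times it was 0 to 3 for HF against CD (0 without HF ZT6 replicate 3), 2 to 5 for HFN against CD (5 without CD ZT18 replicate 1) and 3 to 5 for ZT18 against ZT6. The mean of several transcript clusters per symbol was not run, since every member had 1. With 3 arrays a group and 13 members below the negative controls, small changes in dim genes were not detectable.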
